A study of Mus musculus with 9 samples.

Results

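The mRNA of 38 marker genes of epithelial and mesenchymal cells was followed in cultures of mouse retinal ganglion cells (RGCs), the neurons whose axons form the optic nerve. The 38 genes were chosen by symbol as known markers, and they stand among 22322 genes in the expression table. Earlier results of these data were known when they and the other gene lists were chosen. They comprise 23 epithelial genes (keratins, adhesion molecules, tight junction genes, desmosome genes and a splicing factor), 2 mesothelial genes and 13 mesenchymal genes (cadherins, transcription factors, and filament and contractile genes). RNA sequencing gave 9 libraries in 3 groups of 3. Normal RGCs were wild-type cells, and the paper gives complete medium for the normal group of its viability assay. Aging RGCs were the same wild-type cells after exposure to D-galactose, a sugar given to provoke features of ageing. Aging RGCs + USCs medium were D-galactose-exposed wild-type cells that were then kept in medium conditioned by urine-derived stem cells (USCs), with the stem cells removed. The RGCs were bought as a culture, and the exposure time of the sequenced wells is not given in the sources used here. Whether the normal and aging wells had the same base medium as the wells with USCs medium could not be worked out. No library analysed here came from cells in unconditioned stem cell medium, so medium composition and secreted factors cannot be told apart. The replicates were 3 wells of each group, so p-values measure the spread between wells, which may be technical. The normal libraries held 19814236 to 22342283 counts, the aging libraries 18189610 to 19556335, and those with USCs medium 20238813 to 21054300.

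Epithelial cells form sheets that are held together by adherens junctions built on E-cadherin, by tight junctions built on claudins and occludin, and by desmosomes that anchor keratin filaments. Mesenchymal cells are single and motile, carry N-cadherin and vimentin, and are shaped by transcription factors of the SNAIL, ZEB and TWIST families, which can repress epithelial genes in an epithelial to mesenchymal transition. A keratin filament is a polymer of pairs, each with a type II keratin such as Krt8 and a type I keratin such as Krt18, Krt19 or Krt20. Neurons normally build their filaments from neurofilament proteins and use N-cadherin for adhesion.

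The label of these cultures was checked against 14 RGC markers. The defining RGC transcription factor genes Pou4f2 and Pou4f3, and the neuronal genes Rbfox3 and Stmn2, were at 0 in all 9 libraries. Pou4f1 had at most 27 counts, Sncg at most 7 and Slc17a6 at most 4. Rbpms, an RNA-binding protein gene used to label RGCs, was the most abundant of the list at a mean level of 27.2 FPKM, a read density scaled by transcript length and library size, below the levels of Krt8, Krt18 and Krt19. The summed level of the RGC list was 143 to 154 CPM (counts scaled to library size) in the normal libraries, 102 to 105 in the aging libraries and 96.5 to 104 with USCs medium. In aging RGCs 4 of the 5 tested genes of the list fell at an adjusted p under 0.05 and 0 rose. The falls are 80% of those tested, beside 23% of all genes. Rbpms was among them, with a log2 fold change of -0.30 (SE 0.0534, edgeR adjusted p = 3.18e-05). With USCs medium against aging RGCs 1 gene rose and 1 fell, opposite moves that the sum hides. Nefl, a neurofilament gene, had 57.5, 67.5 and 65.9 CPM in normal RGCs, 36.6, 41.5 and 37.2 in aging RGCs and 16.1, 18.2 and 17.5 with USCs medium, a fall in each step (edgeR adjusted p = 3.35e-10 and 3.99e-13). Its counts were fractional in all 9 libraries and its exons overlap those of Nefm on the other strand, so its values are uncertain to that extent. Tubb3, a neuronal tubulin gene, had 4.42, 4.51 and 4.44 CPM in normal RGCs, 3.14, 2.37 and 2.28 in aging RGCs and 21.2, 22.2 and 20.1 with USCs medium, which is 8.16-fold above aging RGCs (edgeR adjusted p = 3.07e-17). Isl1, a transcription factor gene of RGCs and other neurons, had 17.9, 17.1 and 21.6 CPM in normal RGCs, 12.98, 11.1 and 11.8 in aging RGCs and 12.1, 14.1 and 12.96 with USCs medium. The cells keep the name of their label here, with some RGC markers present and others at 0 or near it. The third library with USCs medium stood apart from the other two in macrophage genes. The complement gene C1qb had 21, 13 and 11 counts in normal RGCs, 0, 0 and 0 in aging RGCs and 0, 0 and 15 with USCs medium. In the 3 libraries with USCs medium Lyz2 had 45, 20 and 241 counts, Adgre1 2, 2 and 32, Itgam 5, 2 and 29, Csf1r 4, 8 and 27 and C1qc 0, 0 and 12. Without this library, the changes against aging RGCs on the log2 scale were 2.19 for Krt20, -1.12 for Ocln, -0.89 for Jup and -0.79 for S100a4, all still called by edgeR. The calls of Cdh2, Dsp, Tjp1 and Zeb2 were lost with log2 fold changes of -0.11, -0.18, 0.09 and 0.10, beside -0.12, -0.21, 0.10 and 0.11 with all libraries. In bulk RNA, fewer cells of a type and less RNA per cell cannot be told apart.

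Several of the 38 genes belonged to the most abundant mRNAs of the cultures, and others were absent. On the FPKM scale, which allows levels of different genes to be compared, vimentin (Vim, ENSMUSG00000026728, chr2:13573927-13582826 on GRCm38) had a mean level of 864 over the 9 libraries and rank 50 of all 22322 genes. S100a4, a calcium-binding protein gene of motile cells, followed at 522 FPKM with rank 109. Next came the simple epithelial keratins Krt8 at 285, Krt18 at 198 and Krt19 at 190.5 FPKM, with ranks 198, 293 and 309. Tjp1, which encodes the tight junction scaffold ZO-1, stood at 66.8 FPKM, the desmosome and adherens junction gene Jup (plakoglobin) at 39.8, Twist2 at 35.6 and N-cadherin (Cdh2) at 28.6. E-cadherin (Cdh1), the defining epithelial cadherin, had 5, 1 and 1 counts in the normal libraries, 1, 0 and 1 in the aging libraries and 1, 1 and 0 with USCs medium. These values lay at or near the limit that a count of 0 allows, which is 3 counts or 0.134 to 0.165 CPM in a library. Such limits cover counting error only.

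**Figure D1:**
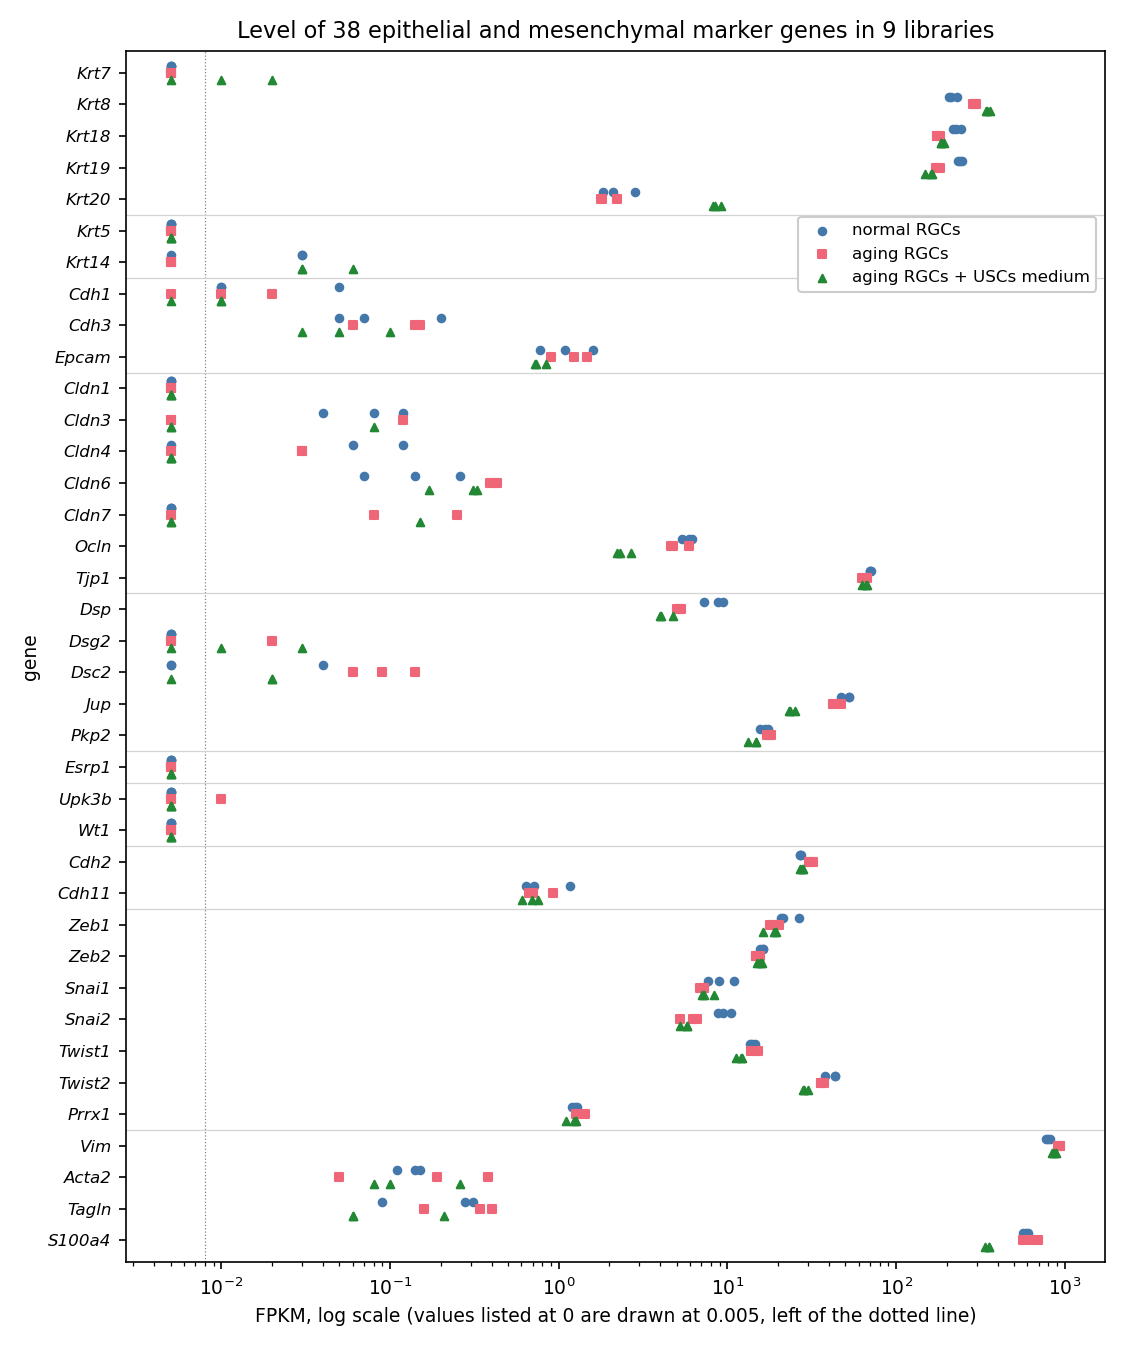
Level of each of the 38 genes in FPKM on a log scale, with 1 point per library and values listed at 0 drawn left of the dotted line. Vim, S100a4, Krt8, Krt18 and Krt19 lie at the right edge, while Cldn1, Krt5, Esrp1 and Wt1 were at 0 in all 9 libraries.

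A count filter kept 23 of the 38 genes for testing, of which 12 were epithelial, 0 mesothelial and 11 mesenchymal. Of the 15 that were not tested, 4 had 0 counts in all 9 libraries. These were Krt5, a keratin of stratified epithelium, Cldn1, a claudin, Esrp1, a regulator of epithelial splicing, and Wt1, a transcription factor of mesothelium. The other 11 never exceeded 14 counts in a library and comprised Krt7, Krt14, Cdh1, Cldn3, Cldn4, Cldn7, Dsg2, Dsc2, Upk3b, Acta2 and Tagln. Upk3b, a mesothelial and urothelial surface gene, had a single count in 1 aging library. Dsg2 and Dsc2, the desmosomal cadherins that Jup and Pkp2 bind, had at most 3 and 6 counts, with 0, 0 and 2 counts of Dsc2 in normal RGCs, 6, 5 and 5 in aging RGCs and 2, 1 and 0 with USCs medium. Acta2, the smooth muscle actin of contractile myofibroblasts, had 5, 6 and 3 counts in normal RGCs, 14, 3 and 2 in aging RGCs and 4, 6 and 3 with USCs medium, and Tagln (transgelin) never exceeded 10.

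The E-box is the DNA motif through which SNAIL and ZEB factors bind epithelial promoters, and it was searched as the letters CAGGTG and CACCTG, each the reverse complement of the other. The searched promoters ran from 250 bases before to 50 bases after each gene start in RefSeq on GRCm38.p6, and 25 of the 38 genes had an entry. Of the 16 epithelial genes with an entry, 11 (68.8%) held at least 1 motif and 5 held 2 in a single promoter. Of the 8 mesenchymal genes with an entry, 1 (12.5%) held it, which was Snai1. Of all 27025 genes with an entry, 6098 (22.6%) held it. Cdh1, Cdh3, Dsc2, Dsg2, Esrp1, Krt19, Pkp2, Cdh2, Cdh11, Snai2, Tagln, Zeb1 and Wt1 had no entry. Sites of 30 bases are shown for some of the genes that carry the keratin and junction results and for the epithelial adhesion gene Epcam, from 5′ to 3′ on the strand of the gene, with the motif in capitals.
Krt18, chr15:102027990-102028019, plus strand: aggggctaacacCACCTGctatcctttgtg
Ocln, chr13:100552694-100552723, minus strand: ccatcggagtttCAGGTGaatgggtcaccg
Ocln, chr13:100552549-100552578, minus strand: ctaggggctcggCAGGTGggtcccagcgca
Dsp, chr13:38151285-38151314, plus strand: gaagaagccgacCAGGTGtggcctgggcgc
Epcam, chr17:87635780-87635809, plus strand: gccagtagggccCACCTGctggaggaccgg
Epcam, chr17:87635948-87635977, plus strand: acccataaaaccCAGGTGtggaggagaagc
The motif was present in promoters of genes at very different levels, from Krt18 among the most abundant mRNAs to Cldn4 and Cldn7 near 0. The promoter of Krt8 also held 1 motif, and its site is not shown. Those of Krt20, Tjp1 and Jup held 0. A link between the motif and the changes of these genes was not tested. A match describes letters in a window and is not a measured binding site.

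The marker genes moved in both directions in each comparison. Aging RGCs were compared with normal RGCs to ask what D-galactose exposure was accompanied by, and 5 of the 23 tested genes rose and 9 fell at an adjusted p under 0.05 in edgeR's quasi-likelihood test. In the same comparison 23.6% of all 12145 tested genes rose and 23% fell. In aging RGCs + USCs medium against aging RGCs, which asks what the conditioned medium added, 5 rose and 8 fell, beside 27.1% and 26% of all genes. Against normal RGCs, the medium-treated cells had 4 higher and 9 lower genes, beside 30.6% and 29.9%. The shares of tested marker genes that rose were 21.7%, 21.7% and 17.4% in that order, and those that fell were 39.1%, 34.8% and 39.1%. In either direction these are 60.9%, 56.5% and 56.5% of the tested marker genes, beside 46.5%, 53.1% and 60.5% of all genes. The comparisons share libraries, so they are not independent of each other.

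**Figure D2:**
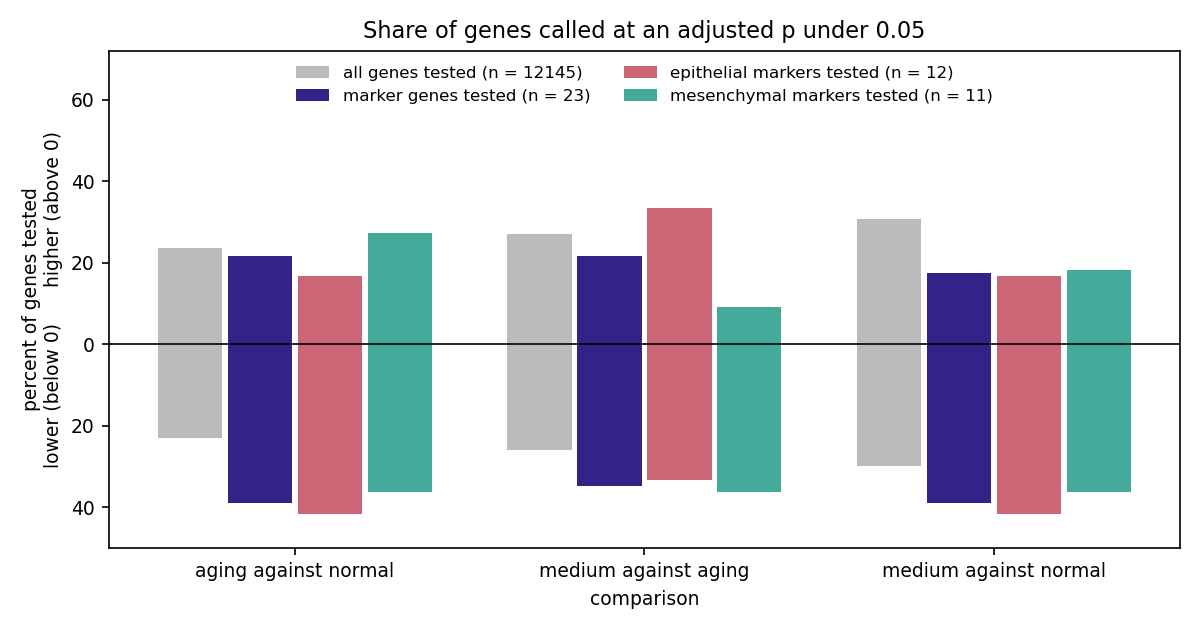
Percent of tested genes called higher (above 0) or lower (below 0) at an adjusted p under 0.05 in each comparison, for all 12145 genes, the 23 tested marker genes, the 12 epithelial and the 11 mesenchymal ones. In each comparison the 23 marker genes together had a lower share of rises and a higher share of falls than all genes. With USCs medium against aging RGCs 4 of the 12 epithelial genes rose (33.3% beside 27.1%). In aging RGCs 3 of the 11 mesenchymal genes rose (27.3% beside 23.6%). Both shares are near those of all genes and rest on few genes, so they do not set the 2 kinds of gene apart.

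Most changes were small. The median log2 fold change of the tested marker genes was -0.10 in aging against normal RGCs, -0.09 with USCs medium against aging RGCs and -0.19 with USCs medium against normal RGCs, beside 0.00, -0.01 and -0.01 for all genes. The median size of the change without its sign was 0.19, 0.21 and 0.42, beside 0.18, 0.21 and 0.25 for all genes. A change of at least 2-fold was called in the first comparison only for Cldn6, which rose and passed the count filter through the aging libraries. In the second it was called for Krt20, which rose, and Ocln, which fell. In the third it was called for Krt20, which was higher, and for Ocln and Jup, which were lower. Of all genes, 1.09% rose and 1.56% fell by at least 2-fold in the first comparison (2.65% in all), 1.24% and 4.21% in the second (5.44%), and 1.47% and 5.24% in the third (6.72%). The 3 libraries of each group did not overlap for 12, 14 and 14 of the 23 genes, beside 53%, 59.8% and 63.8% of all genes. Without the trimmed mean of M values (TMM) scaling, which corrects library totals for their composition, the median of all genes with USCs medium against normal RGCs shifted to -0.11, and the calls among the marker genes became 3 higher and 13 lower, with 2 higher and 10 lower against aging RGCs. With upper-quartile scaling the latter were 3 higher and 9 lower.

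**Figure D3:**
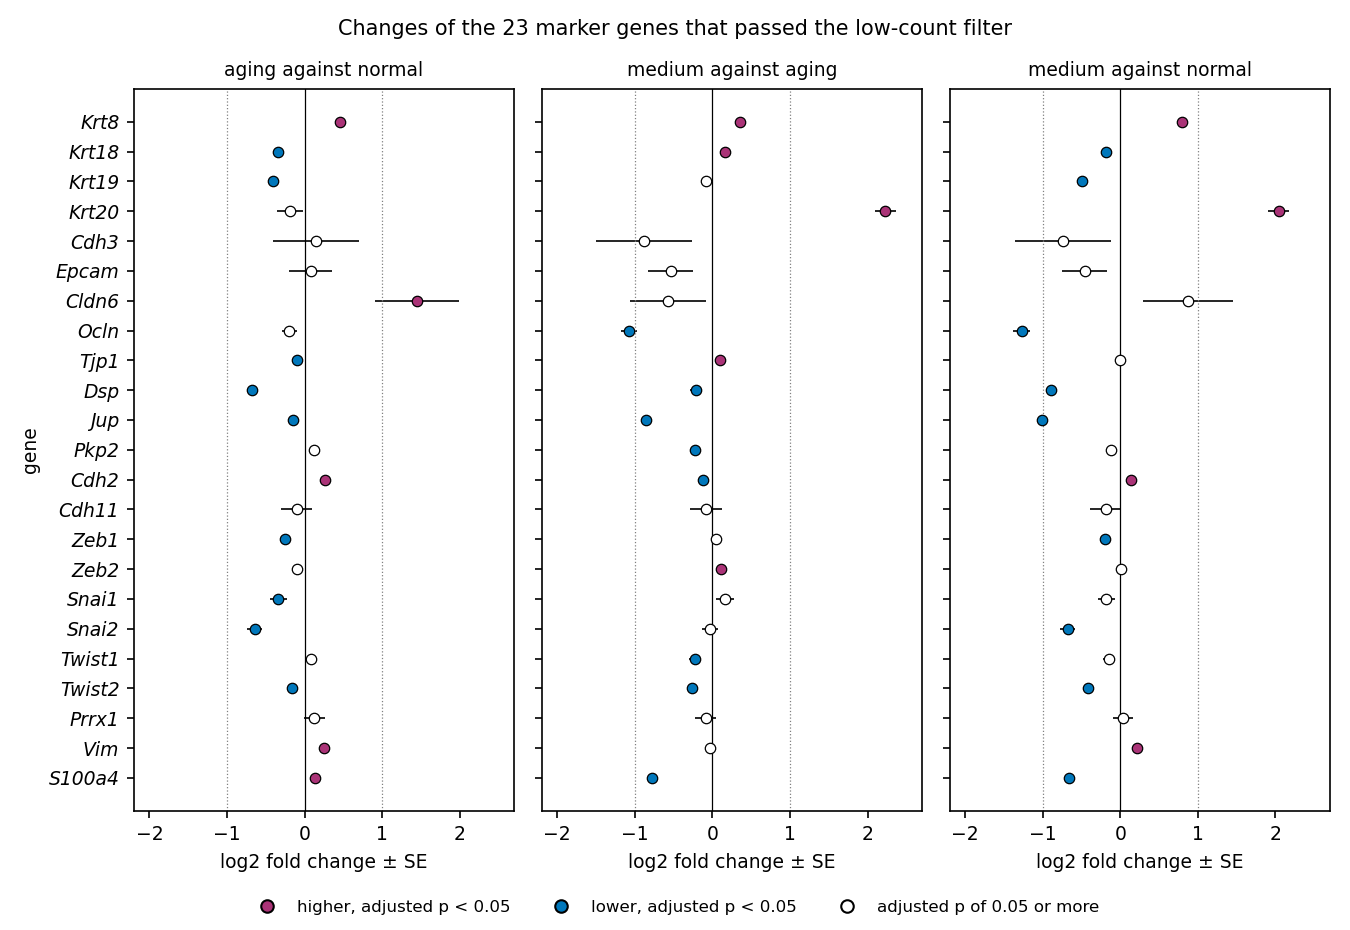
Log2 fold change with its standard error for each of the 23 tested marker genes in the 3 comparisons, with filled points at an adjusted p under 0.05. Krt20 stands furthest to the right in both comparisons of USCs medium, and Ocln and Jup stand furthest to the left in the comparison with normal RGCs.

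The simple epithelial keratins split within the family. In aging RGCs Krt8 rose, whereas Krt18 and Krt19 fell. Krt8 (ENSMUSG00000049382, chr15:101996698-102004482), the type II keratin, had 391, 434 and 405 CPM in the normal libraries, 569.5, 557 and 553 in the aging libraries and 712, 738 and 693 with USCs medium. The 3 groups did not overlap and rose in that order. The log2 fold change was 0.45 (SE 0.0352, edgeR adjusted p = 2.41e-11) in aging against normal RGCs and 0.35 (SE 0.0348, edgeR adjusted p = 1.68e-09) with USCs medium against aging RGCs. Against normal RGCs the level of Krt8 with USCs medium was 1.74-fold higher (log2 fold change 0.80, edgeR adjusted p = 4.04e-17).

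Krt18 (chr15:102028180-102032027), the usual partner of Krt8, lies 23697 bases from it on the same chromosome and on the opposite strand. It had 302, 340.5 and 319 CPM in normal RGCs, 248, 259 and 249 in aging RGCs and 279, 278 and 287 with USCs medium. Krt18 was lowest in aging RGCs, with a log2 fold change of -0.35 (SE 0.0377, edgeR adjusted p = 1.47e-08). With USCs medium it was higher than in aging RGCs with a log2 fold change of 0.16 (SE 0.0380, edgeR adjusted p = 0.000910), a call that was lost without TMM scaling (edgeR adjusted p = 0.077 for a value of 0.08) and with limma on FPKM. Krt18 with USCs medium stayed below normal RGCs, at -0.19 (SE 0.0375, edgeR adjusted p = 8.63e-05) and with no overlap. This call was kept in all alternatives. Krt19 (chr11:100140810-100148665), a small type I keratin of simple and ductal epithelium, had 353, 365 and 377 CPM in normal RGCs, 266, 285 and 272 in aging RGCs and 243, 267 and 264 with USCs medium. Its log2 fold change was -0.41 (SE 0.0375, edgeR adjusted p = 5.60e-10) in aging RGCs, and with USCs medium against normal RGCs it was -0.50 (SE 0.0376, edgeR adjusted p = 4.24e-12). The step of Krt19 from aging RGCs to USCs medium was -0.09 (SE 0.0381, edgeR adjusted p = 0.0518), which is at the threshold: it passed in 12 alternatives, among them without normal replicate 1, normal replicate 2, aging replicate 1 or medium replicate 2 (adjusted p 0.0477, 0.0469, 0.0375 and 0.0298 by edgeR).

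Krt20 (chr11:99428403-99438150), a type I keratin known from gut epithelium and from the umbrella cells of the urothelium, gave the largest change among the tested marker genes with USCs medium. It had 3.42, 5.28 and 3.95 CPM in normal RGCs, 4.22, 3.40 and 3.44 in aging RGCs and 16.95, 16.6 and 18.3 with USCs medium. The normal and aging libraries overlapped, with a log2 fold change of -0.19 (SE 0.164, edgeR adjusted p = 0.363). Every library with USCs medium lay above every other library. The log2 fold change with USCs medium was 2.23 (SE 0.139, edgeR adjusted p = 1.36e-13) against aging RGCs, or 4.69-fold, and 2.04 (SE 0.134, edgeR adjusted p = 2.34e-13) against normal RGCs. On the FPKM scale Krt20 remained a small part of the type I keratins, at 0.477% ± 0.0926 (SD, n = 3) of the sum of Krt18, Krt19 and Krt20 in normal RGCs, 0.545% ± 0.0823 in aging RGCs and 2.43% ± 0.101 with USCs medium.

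**Figure D4:**
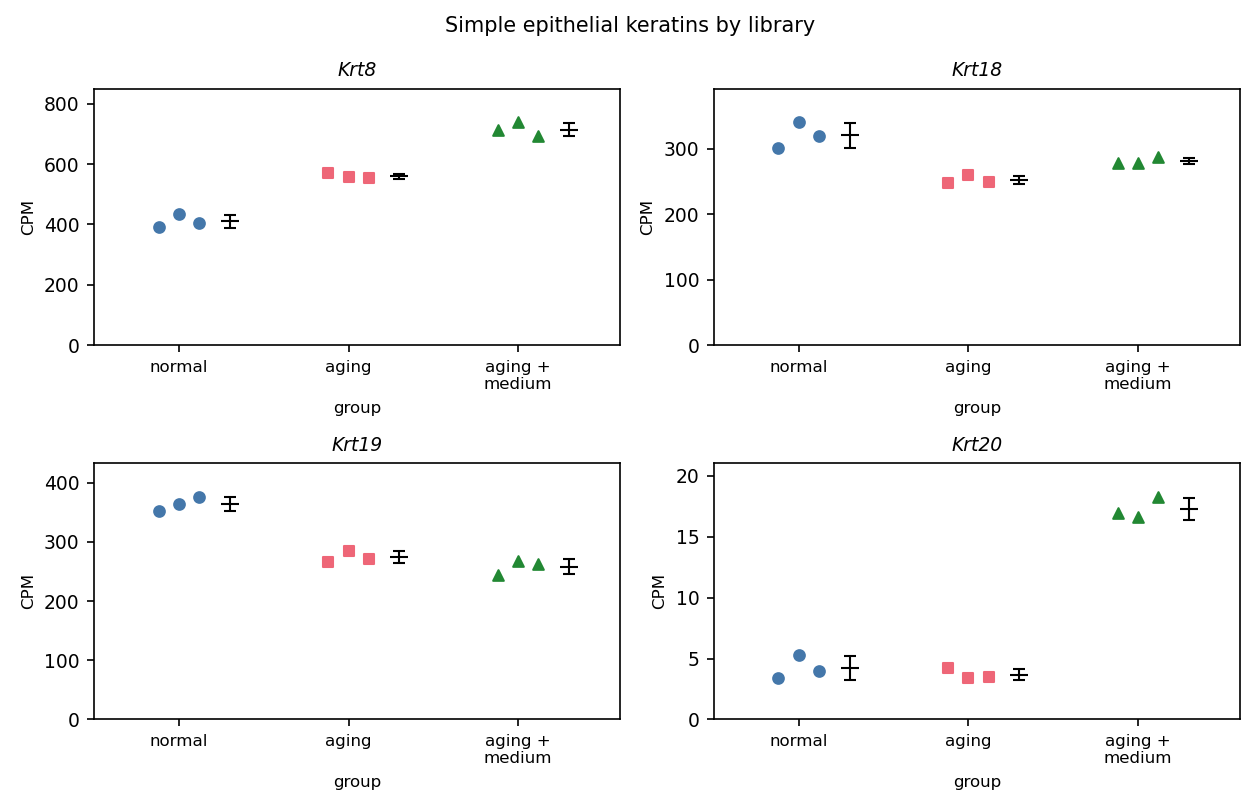
CPM of Krt8, Krt18, Krt19 and Krt20 in each library, with the mean and SD of the 3 libraries of each group beside the points. Krt8 steps up across the groups, Krt19 is highest in normal RGCs, and Krt20 is high with USCs medium.

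As a description chosen after the values were seen, the ratio of type I (Krt18, Krt19 and Krt20) to type II (Krt8) keratin mRNA on the FPKM scale was 2.18 ± 0.056 (SD, n = 3) in normal RGCs, 1.23 ± 0.0478 in aging RGCs and 1.01 ± 0.0462 with USCs medium. The libraries of normal RGCs lay at 2.12 to 2.24, those of aging RGCs at 1.18 to 1.28 and those with USCs medium at 0.982 to 1.06. The sum of Krt8, Krt18 and Krt19 differed less, at 683 ± 27.6 FPKM in normal RGCs, 644 ± 9.58 in aging RGCs and 695 ± 13.7 with USCs medium. In normal RGCs the libraries of Krt8 (215 ± 11.4 FPKM) and Krt18 (229 ± 13.4) overlapped, but within each library Krt18 was above Krt8, at a ratio of 1.06 ± 0.0101 (SD, n = 3). The libraries of Krt18 and Krt19 (238 ± 6.56) overlapped as well. With USCs medium Krt8 (349.9 ± 9.93 FPKM) stood above Krt18 (188 ± 4.31), and Krt18 above Krt19 (157 ± 8.20), with no overlap between their libraries. Exons of Krt8 overlap those of Gm36026 on the other strand. The strandedness of the libraries is not given in the sources used here, and reads of the 2 genes cannot be told apart without it. The same limit holds for Dsp, Zeb1, Zeb2 and Twist2 among the tested genes of the 38. It also holds for Krt5, Krt7, Cldn3, Dsg2, Esrp1 and Tagln, which were not tested. Among the related genes named it holds for Krt80, Cxadr, Nectin2, Grhl2, Elf3, Bnc1, Gata6, Fn1, Tnc, Cnn3, Des and Ctnnb1.

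The keratins of stratified epithelium were close to absent, with Krt5 at 0 and Krt14, its basal partner, at no more than 2 counts. Krt7, a type II keratin of ductal and urothelial cells, had at most 2 counts. A list of 10 other keratins gave 5 tested genes, of which 3 rose and 2 were not called in aging RGCs, and 1 rose and 2 fell with USCs medium against aging RGCs. Krt13 was the most abundant of this list at 9.23 FPKM. Its log2 fold change was 0.14 (SE 0.0857, edgeR adjusted p = 0.192) in aging RGCs. With USCs medium against aging RGCs Krt13 fell, at -0.27 (SE 0.0875, edgeR adjusted p = 0.00996). Krt15, a type I keratin of basal cells, was low but changed most in this list, with 0.910, 0.630 and 0.691 CPM in normal RGCs, 1.89, 1.85 and 1.52 in aging RGCs and 0.205, 0.347 and 0.102 with USCs medium. Its log2 fold change was 1.22 (SE 0.338, edgeR adjusted p = 0.00381) in aging RGCs and -2.96 (SE 0.428, edgeR adjusted p = 1.30e-06) with USCs medium against aging RGCs. Krt16, a type I keratin of activated epidermis, was also low and rose in aging RGCs with a log2 fold change of 1.10 (SE 0.445, edgeR adjusted p = 0.0432). Krt80, a type II keratin, had 4.42, 5.82 and 4.98 CPM in normal RGCs, 7.95, 7.005 and 7.65 in aging RGCs and 11.5, 12.2 and 11.4 with USCs medium. Its 3 groups did not overlap, with log2 fold changes of 0.57 (SE 0.132, edgeR adjusted p = 0.000702) and 0.63 (SE 0.120, edgeR adjusted p = 6.04e-05) in the first and second comparisons.

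Of the epithelial adhesion molecules, Epcam, a surface glycoprotein of epithelial cells, had 30, 38 and 56 counts in normal RGCs, 39, 30 and 50 in aging RGCs and 26, 31 and 27 with USCs medium. The counts of aging RGCs and USCs medium overlapped. On the CPM scale the libraries with USCs medium (1.34, 1.54 and 1.38) lay just below the aging libraries (2.11, 1.55 and 2.53). The log2 fold change of -0.54 (SE 0.293, edgeR adjusted p = 0.125) did not pass. P-cadherin (Cdh3) had 5, 18 and 6 counts in normal RGCs, 12, 12 and 5 in aging RGCs and 9, 3 and 4 with USCs medium, and these groups overlapped. No difference between groups was called for either gene.

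Among the tight junction genes, occludin (Ocln, ENSMUSG00000021638, chr13:100496507-100552718), a membrane protein of the tight junction strand, fell with USCs medium. Its levels were 16.2, 15.7 and 15.4 CPM in normal RGCs, 14.8, 13.4 and 13.1 in aging RGCs and 6.73, 5.86 and 7.02 with USCs medium. Each library with USCs medium held less than any library of the other groups. The log2 fold change was -1.07 (SE 0.106, edgeR adjusted p = 1.73e-09) against aging RGCs, a level 2.10-fold lower, and -1.27 (SE 0.104, edgeR adjusted p = 2.12e-11) against normal RGCs. In aging against normal RGCs it was -0.20 (SE 0.0941, edgeR adjusted p = 0.0860), and the libraries of the 2 groups did not overlap.

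Tjp1 had 436, 435 and 447 CPM in normal RGCs, 396, 427 and 407 in aging RGCs and 449.6, 419.7 and 447 with USCs medium. It was lower in aging RGCs with a log2 fold change of -0.10 (SE 0.0342, edgeR adjusted p = 0.0164) and higher with USCs medium than in aging RGCs with a log2 fold change of 0.10 (SE 0.0343, edgeR adjusted p = 0.0168). The levels with USCs medium and in normal RGCs overlapped (edgeR adjusted p = 0.956), while without TMM factors the log2 fold change was -0.10 (edgeR adjusted p = 0.00999). The first call was lost when normal replicate 3, or aging replicate 1 or 3, was left out (edgeR adjusted p 0.055, 0.0948 and 0.0623). The second was lost without aging replicate 1 or 3 or medium replicate 1 or 3 (edgeR adjusted p 0.095, 0.0577, 0.0795 and 0.0656), without TMM factors, with upper-quartile factors and with limma on FPKM.

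Cldn6, a claudin of early epithelia, was the one tested claudin among the 38 genes and rested on few counts, with 8, 2 and 4 in normal RGCs, 11, 12 and 12 in aging RGCs and 9, 10 and 5 with USCs medium. It rose in aging RGCs with a log2 fold change of 1.45 (SE 0.541, edgeR adjusted p = 0.0288). That call was lost in 7 alternatives, among them DESeq2 (adjusted p = 0.082) and the absence of normal replicate 2 or 3 or of aging replicate 1, 2 or 3 (edgeR adjusted p 0.133, 0.0768, 0.0592, 0.0682 and 0.0647). Another was the fit without the low-count filter (edgeR adjusted p = 0.072). The highest counts of Cldn6 were those of the aging libraries, and the count filter kept it through them. The group in which the gene was high thus decided that it was tested. The other 4 claudins among the 38 had no more than 5 counts in any library.

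Among the 38, the 3 tested desmosome plaque genes Jup, Dsp and Pkp2 fell with USCs medium against aging RGCs, where 26% of all genes fell, and the call of Dsp was lost in 5 alternatives. Outside the 38, the plakophilin genes Pkp3 and Pkp4 rose in the same comparison (values with the other desmosome genes). Jup (chr11:100368958-100397763), whose product plakoglobin links desmosomal and classical cadherins to the cytoskeleton, had 158, 143 and 157 CPM in normal RGCs, 132, 134 and 145 in aging RGCs and 74.2, 73.6 and 80.05 with USCs medium. The libraries of normal and aging RGCs overlapped, and those with USCs medium stood well below both. The log2 fold change was -0.15 (SE 0.0454, edgeR adjusted p = 0.00624) in aging against normal RGCs, -0.85 (SE 0.0484, edgeR adjusted p = 1.77e-14) with USCs medium against aging RGCs, or 1.81-fold lower, and -1.01 (SE 0.0478, edgeR adjusted p = 1.95e-16) against normal RGCs.

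Desmoplakin (Dsp), which ties the desmosome to keratin filaments, had 85.5, 66.01 and 79.04 CPM in normal RGCs, 48.9, 49.03 and 46.5 in aging RGCs and 46.6, 38.4 and 39.998 with USCs medium. Its largest step was the fall in aging RGCs, at -0.68 (SE 0.0714, edgeR adjusted p = 8.49e-09), with no overlap between the groups. The further step with USCs medium was -0.21 (SE 0.0762, edgeR adjusted p = 0.0221), with overlapping libraries, and lost its call without aging replicate 1 or 2 or medium replicate 2 or 3 (edgeR adjusted p 0.0653, 0.0727, 0.15 and 0.0938). Plakophilin 2 (Pkp2), another plaque protein, had 43.8, 47.3 and 49.9 CPM in normal RGCs, 51.97, 49.2 and 51.4 in aging RGCs and 40.5, 45.1 and 44.6 with USCs medium. It was lower with USCs medium than in aging RGCs with a log2 fold change of -0.23 (SE 0.0587, edgeR adjusted p = 0.00168), while the difference of aging from normal RGCs was 0.12 (SE 0.0577, edgeR adjusted p = 0.104) and passed without normal replicate 3 (adjusted p = 0.0483). Against normal RGCs the value with USCs medium was -0.11 (SE 0.0585, edgeR adjusted p = 0.0960), which passed in 5 alternatives: without normal replicate 1 (edgeR adjusted p = 0.0273), without TMM factors (-0.21, edgeR adjusted p = 0.00254), with upper-quartile factors and in both limma fits.

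**Figure D5:**
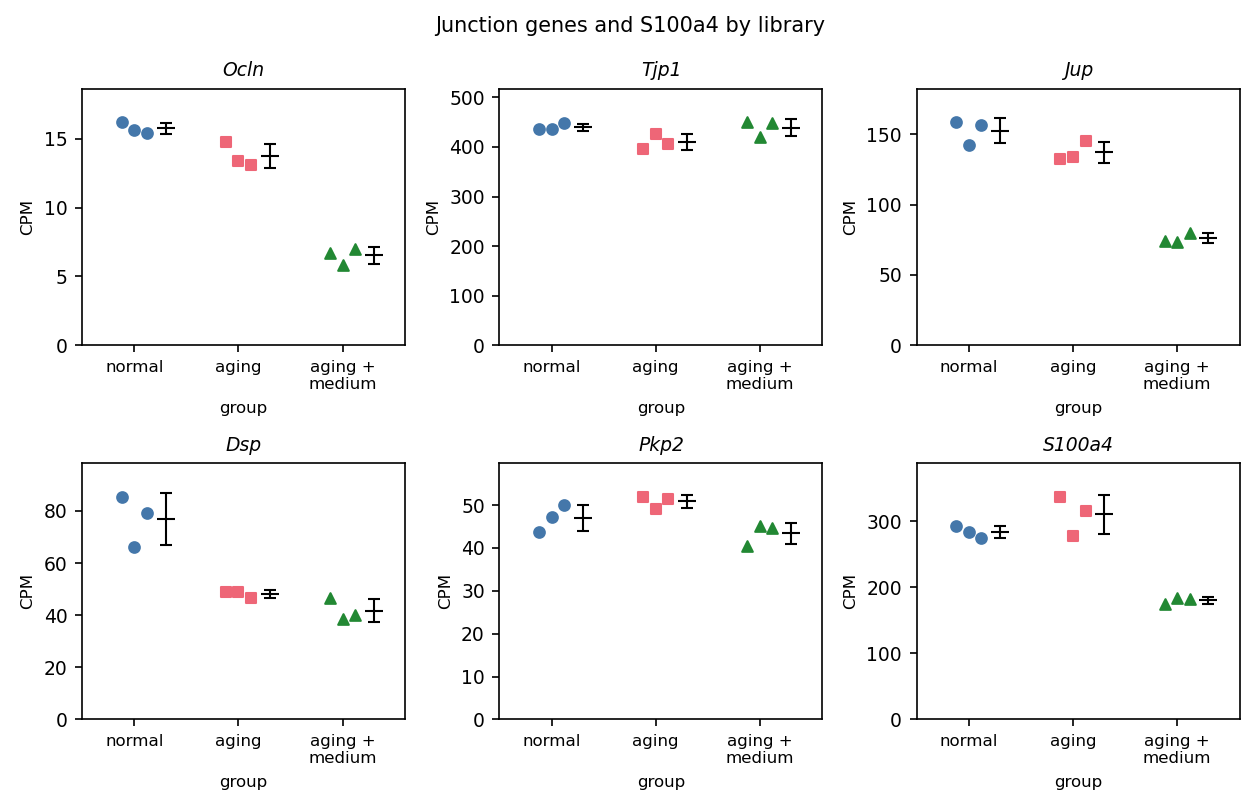
CPM of the tight junction genes Ocln and Tjp1, the desmosome genes Jup, Dsp and Pkp2, and S100a4 in each library, with the mean and SD of each group of 3. Ocln, Jup and S100a4 are low with USCs medium, Dsp is high in normal RGCs, and Tjp1 differs little.

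The mesenchymal cadherin Cdh2 (N-cadherin), which neurons also use, was higher in aging RGCs. It had 107, 107 and 106 CPM in normal RGCs, 124, 132 and 127 in aging RGCs and 121, 116 and 116 with USCs medium. The aging libraries lay above all others, with a log2 fold change of 0.26 (SE 0.0394, edgeR adjusted p = 3.61e-06) against normal RGCs. With USCs medium it was -0.12 (SE 0.0393, edgeR adjusted p = 0.0115) against aging RGCs, a call lost without aging replicate 2 or medium replicate 2 or 3 (edgeR adjusted p 0.0865, 0.0534 and 0.0501). It remained above normal RGCs with a log2 fold change of 0.14 (SE 0.0395, edgeR adjusted p = 0.00321), and this call was lost without TMM scaling (adjusted p = 0.392 by edgeR) and in both limma fits. Cdh11 (OB-cadherin), found on fibroblasts and bone cells, was low, at 3.51 to 6.40 CPM over all 9 libraries, with overlapping groups and no call.

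Of the 7 mesenchymal transcription factor genes, all tested, 4 (57.1%) fell in aging RGCs and 3 were not called, beside 23% of all genes that fell. The calls of Snai1 and Twist2 among them were lost when single libraries were left out. Snai2 (SLUG), a repressor of epithelial genes, had 17.2, 20.7 and 18.5 CPM in normal RGCs, 13.1, 12.5 and 10.4 in aging RGCs and 10.99, 12.1 and 12.04 with USCs medium. All 3 normal libraries lay above all others, with log2 fold changes of -0.64 (SE 0.0978, edgeR adjusted p = 3.71e-06) in aging RGCs and -0.68 (SE 0.0977, edgeR adjusted p = 8.22e-07) with USCs medium against normal RGCs. With USCs medium against aging RGCs the log2 fold change was -0.03 (SE 0.104, edgeR adjusted p = 0.807). Snai1 (SNAIL), its close relative, had 14.03, 12.02 and 17.4 CPM in normal RGCs, 11.03, 11.6 and 11.7 in aging RGCs and 11.97, 12.4 and 13.98 with USCs medium. Its fall in aging RGCs of -0.34 (SE 0.112, edgeR adjusted p = 0.0143) rested on normal replicate 3, without which the adjusted p by edgeR was 0.171. Against normal RGCs the value with USCs medium was -0.18 (SE 0.110, edgeR adjusted p = 0.160), which passed without normal replicate 2 (edgeR adjusted p = 0.0195) and without TMM factors (edgeR adjusted p = 0.0294).

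Zeb1, a zinc finger repressor of epithelial genes, had 102, 98.8 and 108 CPM in normal RGCs, 85.6, 83.5 and 89.9 in aging RGCs and 91.5, 87.3 and 89.8 with USCs medium. It fell in aging RGCs with a log2 fold change of -0.25 (SE 0.0444, edgeR adjusted p = 3.12e-05) with no overlap, and the log2 fold change with USCs medium against normal RGCs was -0.20 (SE 0.0441, edgeR adjusted p = 0.000296). Its relative Zeb2 had 79.05, 87.3 and 84.4 CPM in normal RGCs, 77.01, 77.8 and 79.1 in aging RGCs and 86.6, 80.04 and 86.2 with USCs medium. Its difference of aging from normal RGCs, -0.10 (SE 0.0468, edgeR adjusted p = 0.0823), passed without normal replicate 1 (edgeR adjusted p = 0.0199) and without TMM factors (edgeR adjusted p = 0.0341). Its rise with USCs medium against aging RGCs, 0.11 (SE 0.0470, edgeR adjusted p = 0.0457), was lost in 12 alternatives, which included the absence of aging replicate 1, 2 or 3 or of medium replicate 1 or 3 (edgeR adjusted p 0.105, 0.0887, 0.0647, 0.147 and 0.13). Exons of Zeb1 and Zeb2 overlap antisense genes, Gm10125 for Zeb1 and Zeb2os for Zeb2, as those of Dsp overlap Gm10129 and those of Twist2 overlap Gm29100.

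Twist2, a basic helix-loop-helix factor of dermal and bone mesenchyme, was the most abundant of the 7 factors on the FPKM scale and was lowest with USCs medium. It had 55.9, 48.9 and 56.6 CPM in normal RGCs, 47.3, 49.4 and 47.4 in aging RGCs and 39.5, 39.5 and 41.5 with USCs medium. The libraries with USCs medium lay below all others, with log2 fold changes of -0.26 (SE 0.0592, edgeR adjusted p = 0.000559) against aging RGCs and -0.42 (SE 0.0580, edgeR adjusted p = 3.98e-07) against normal RGCs. The first step, -0.16 (SE 0.0571, edgeR adjusted p = 0.0202) in aging RGCs, was lost without normal replicate 1 or 3 or aging replicate 1 or 3 (edgeR adjusted p 0.084, 0.102, 0.0606 and 0.0661). Twist1, its close relative, had 22.9, 22.1 and 21.6 CPM in normal RGCs, 24.4, 22.2 and 24.3 in aging RGCs and 19.2, 20.9 and 20.3 with USCs medium. It fell with USCs medium against aging RGCs with a log2 fold change of -0.23 (SE 0.0739, edgeR adjusted p = 0.00988), a call lost without medium replicate 1 (adjusted p = 0.056 by edgeR). Against normal RGCs the value with USCs medium was -0.14 (SE 0.0736, edgeR adjusted p = 0.0934), which passed without TMM factors (-0.24, edgeR adjusted p = 0.00564), with upper-quartile factors (edgeR adjusted p = 0.0363) and in both limma fits. Prrx1, a homeobox factor of mesenchyme, stayed at 5.93 to 7.29 CPM over all 9 libraries with no call.

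Vim, the intermediate filament gene of mesenchymal cells and of many cells in culture, had 1675, 1748 and 1662 CPM in normal RGCs, 2021, 1964 and 2034 in aging RGCs and 1979, 2037 and 1896 with USCs medium. The normal libraries lay below all others. The log2 fold change was 0.24 (SE 0.0300, edgeR adjusted p = 1.32e-07) in aging RGCs and 0.22 (SE 0.0300, edgeR adjusted p = 4.14e-07) with USCs medium against normal RGCs, and -0.03 (SE 0.0300, edgeR adjusted p = 0.485) between USCs medium and aging RGCs. This last value passed without TMM scaling, at -0.10 (adjusted p = 0.00315 by edgeR).

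S100a4 (chr3:90603771-90606045) was, of the tested mesenchymal markers, the one with the largest change with USCs medium against aging RGCs. It had 293, 284 and 275 CPM in normal RGCs, 337, 278 and 315 in aging RGCs and 175, 184 and 182 with USCs medium. All 3 libraries with USCs medium lay below every other library, with log2 fold changes of -0.78 (SE 0.0468, edgeR adjusted p = 5.07e-14) against aging RGCs, or 1.72-fold lower, and -0.66 (SE 0.0468, edgeR adjusted p = 1.28e-12) against normal RGCs. The difference of aging from normal RGCs, 0.13 (SE 0.0455, edgeR adjusted p = 0.0223), was lost when normal replicate 3, or aging replicate 1 or 3, was left out (edgeR adjusted p 0.11, 0.289 and 0.085), and was 0.06 without aging replicate 1. It was also lost without TMM factors (edgeR adjusted p = 0.0644) and in both limma fits (adjusted p 0.194 and 0.196). Exons of S100a4 overlap those of Gm42674 on the same strand and 3 libraries held fractional counts of it, so the counting may have split reads between the 2 genes and its values are uncertain to that extent.

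The other genes of these pathways were followed in lists of 137 genes, of which 81 were tested. In aging against normal RGCs 19 rose and 29 fell (23.5% and 35.8% of those tested), with USCs medium against aging RGCs 25 rose and 31 fell (30.9% and 38.3%), and against normal RGCs 21 were higher and 36 lower (25.9% and 44.4%). Of all genes 23.6% rose and 23% fell in the first comparison, 27.1% and 26% in the second, and 30.6% and 29.9% in the third, and the lists are read against these shares.

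Of 12 epithelial transcription and splicing factor genes 4 were tested, of which 3 fell in aging RGCs and 1 was not called, and 2 rose and 1 fell with USCs medium against aging RGCs. Klf5, a zinc finger factor of proliferating epithelia, had 50.3, 53.1 and 48.2 CPM in normal RGCs, 27.6, 29.3 and 28.9 in aging RGCs and 48.96, 46.2 and 49.1 with USCs medium. The aging libraries lay below all others, with log2 fold changes of -0.82 (SE 0.0582, edgeR adjusted p = 3.17e-12) in aging RGCs and 0.75 (SE 0.0589, edgeR adjusted p = 1.76e-11) with USCs medium against aging RGCs. Klf4, a factor of differentiating epithelium, fell with a log2 fold change of -0.70 (SE 0.0713, edgeR adjusted p = 4.58e-09) in aging RGCs and had -0.01 (SE 0.0758, edgeR adjusted p = 0.919) with USCs medium against aging RGCs. Grhl2, a factor that activates junction genes, had a log2 fold change of -0.64 (SE 0.104, edgeR adjusted p = 1.12e-05) in aging RGCs and 0.31 (SE 0.108, edgeR adjusted p = 0.0157) with USCs medium against aging RGCs. Elf3, an ETS factor of epithelial cells, had a log2 fold change of -0.10 (SE 0.0762, edgeR adjusted p = 0.278) in aging RGCs and fell with USCs medium against aging RGCs, at -0.39 (SE 0.0802, edgeR adjusted p = 0.000186).

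Among 23 other tight junction and polarity genes, 12 were tested, with 3 higher and 5 lower in aging RGCs and 4 higher and 5 lower with USCs medium against aging RGCs. Cxadr, an adhesion receptor at tight junctions, had 28.02, 36.9 and 30.5 CPM in normal RGCs, 14.3, 16.9 and 13.3 in aging RGCs and 23.01, 23.3 and 23.3 with USCs medium, and its groups did not overlap. Its log2 fold change was -1.10 (SE 0.0928, edgeR adjusted p = 1.20e-10) in aging RGCs and 0.64 (SE 0.0965, edgeR adjusted p = 2.29e-06) with USCs medium. Cldn12, a claudin outside the 38 genes, had 23.8, 27.8 and 24.4 CPM in normal RGCs, 20.1, 23.4 and 23.1 in aging RGCs and 33.5, 34.3 and 34.5 with USCs medium. It fell in aging RGCs with a log2 fold change of -0.19 (SE 0.0756, edgeR adjusted p = 0.0454) and rose with USCs medium against aging RGCs, at 0.62 (SE 0.0738, edgeR adjusted p = 5.46e-08), and the libraries with USCs medium lay above all others. Patj, a polarity scaffold gene with fractional counts in 8 libraries, rose in aging RGCs with a log2 fold change of 0.47 (SE 0.189, edgeR adjusted p = 0.0446) and fell with USCs medium against aging RGCs, at -0.45 (SE 0.191, edgeR adjusted p = 0.0499). F11r, a junctional adhesion molecule, fell in aging RGCs with a log2 fold change of -0.43 (edgeR adjusted p = 1.81e-07), and the polarity gene Llgl2 fell with USCs medium against aging RGCs, at -0.50 (edgeR adjusted p = 0.00896). Of 14 adherens junction partners, 11 were tested, of which 3 rose and 4 fell in aging RGCs, and 4 rose and 3 fell with USCs medium against aging RGCs, 2 of the falls at least 2-fold. The largest of these called changes with USCs medium against aging RGCs was the fall of the endothelial cadherin Cdh5, at -2.33 (SE 0.165, edgeR adjusted p = 1.95e-12). Ctnnb1, whose product beta-catenin binds cadherins, was the most abundant of the list at 176 FPKM, and had a log2 fold change of 0.21 (SE 0.0316, edgeR adjusted p = 3.77e-06) in aging RGCs and -0.26 (SE 0.0317, edgeR adjusted p = 1.08e-07) with USCs medium against aging RGCs. Nectin2, an adhesion molecule, had a log2 fold change of -0.80 (SE 0.0679, edgeR adjusted p = 1.27e-10) in aging RGCs and 0.37 (SE 0.0706, edgeR adjusted p = 7.14e-05) with USCs medium against aging RGCs. Its relative Nectin1 rose with USCs medium against aging RGCs, with a log2 fold change of 0.66 (edgeR adjusted p = 2.08e-05).

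Of 10 other epithelial surface genes, 4 were tested, and with USCs medium against aging RGCs 2 rose and 2 were not called. The mucin gene Muc1 had 4.72, 2.18 and 2.37 CPM in normal RGCs, 1.57, 1.34 and 2.33 in aging RGCs and 5.91, 6.45 and 5.84 with USCs medium, and its log2 fold change with USCs medium against aging RGCs was 1.79 (SE 0.244, edgeR adjusted p = 5.14e-07). Cd24a, a small surface glycoprotein of epithelial and neural progenitor cells, had 9.83, 11.4 and 13.7 CPM in normal RGCs, 12.3, 13.9 and 13.2 in aging RGCs and 33.2, 35.8 and 37.7 with USCs medium, a log2 fold change of 1.44 (SE 0.0908, edgeR adjusted p = 1.71e-13) against aging RGCs. The libraries with USCs medium lay above all others for both genes. Spint1, an inhibitor of epithelial surface proteases, fell in aging RGCs with a log2 fold change of -1.02 (SE 0.138, edgeR adjusted p = 6.09e-07). Of 14 other desmosome and hemidesmosome genes 8 were tested, with 1 higher and 2 lower in aging RGCs and 3 higher and 2 lower with USCs medium against aging RGCs. Pkp3, a plakophilin of the desmosome plaque, had 6.54, 8.04 and 6.56 CPM in normal RGCs, 7.14, 6.03 and 6.43 in aging RGCs and 8.89, 10.1 and 10.1 with USCs medium. The libraries of normal and aging RGCs overlapped, and those with USCs medium lay above both, with a log2 fold change of 0.57 (SE 0.128, edgeR adjusted p = 0.000450) against aging RGCs. Pkp4, a plakophilin relative, also rose in this comparison, at 0.20 (SE 0.0410, edgeR adjusted p = 0.000146). Dst, whose product dystonin ties hemidesmosomes to intermediate filaments, had fractional counts in all 9 libraries and fell, at -0.27 (SE 0.0328, edgeR adjusted p = 6.20e-08). The desmosomal cadherin Dsc3 had 1, 1 and 0 counts in normal RGCs, 1, 0 and 0 in aging RGCs and 14, 12 and 21 with USCs medium.

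Although Upk3b and Wt1 were at or near 0, 4 of 9 other mesothelial markers were tested. In aging RGCs 1 of them rose and 1 fell, and with USCs medium against aging RGCs all 4 rose, where 27.1% of all genes rose. Msln (mesothelin), a surface protein of mesothelial cells, had 2.51, 3.30 and 2.96 CPM in normal RGCs, 11.03, 10.9 and 11.7 in aging RGCs and 18.6, 19.8 and 17.8 with USCs medium. Its groups did not overlap, and the log2 fold changes were 1.94 (SE 0.127, edgeR adjusted p = 5.69e-13) and 0.74 (SE 0.0997, edgeR adjusted p = 4.07e-07). Gata6, a factor of mesothelium and endoderm, had 15.6, 19.5 and 18.1 CPM in normal RGCs, 16.5, 18.7 and 17.3 in aging RGCs and 30.4, 31.5 and 30.9 with USCs medium, a log2 fold change of 0.82 (SE 0.0795, edgeR adjusted p = 1.15e-09) against aging RGCs. Bnc1, a zinc finger factor, fell in aging RGCs with a log2 fold change of -1.31 (SE 0.349, edgeR adjusted p = 0.00285) and rose with USCs medium against aging RGCs, at 1.17 (SE 0.358, edgeR adjusted p = 0.00725). Upk1b and Muc16 of the same list were at 0 in all 9 libraries.

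Of 12 mesenchymal matrix genes 8 were tested, of which 2 rose and 5 fell in aging RGCs, 6 fell and 2 were not called with USCs medium against aging RGCs, and 7 were lower and 1 was not called against normal RGCs. The falls are 62.5%, 75% and 87.5% of those tested, beside 23%, 26% and 29.9% of all genes. Fibronectin (Fn1) had 1041, 953 and 1012 CPM in normal RGCs, 613, 685 and 661 in aging RGCs and 479, 444 and 471 with USCs medium, and its groups did not overlap. Its log2 fold change was -0.62 (SE 0.0379, edgeR adjusted p = 1.42e-13) in aging RGCs and -0.49 (SE 0.0385, edgeR adjusted p = 1.70e-11) with USCs medium against aging RGCs. Tenascin C (Tnc), a matrix protein of remodelling tissue, differed in course, with 25.1, 24.96 and 28.03 CPM in normal RGCs, 53.4, 55.9 and 60.3 in aging RGCs and 11.5, 9.78 and 11.3 with USCs medium. It rose with a log2 fold change of 1.12 (SE 0.0672, edgeR adjusted p = 8.05e-14) in aging RGCs and fell with a log2 fold change of -2.39 (SE 0.0769, edgeR adjusted p = 5.80e-20) with USCs medium. Col1a1, which encodes a chain of type I collagen, fell in aging RGCs with a log2 fold change of -0.88 (edgeR adjusted p = 6.86e-07), and the matrix protease gene Mmp2 fell with USCs medium against aging RGCs, at -0.75 (edgeR adjusted p = 1.54e-07). The collagen gene Col3a1 had a log2 fold change of -0.73 (SE 0.0421, edgeR adjusted p = 2.59e-14) with USCs medium against aging RGCs.

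Of 5 tested fibroblast surface genes 1 rose and 3 fell in aging RGCs, and 1 rose and 1 fell with USCs medium against aging RGCs. Cd44, the receptor for hyaluronan, was the most abundant of the list at 156 FPKM and the one that rose in aging RGCs, with a log2 fold change of 0.16 (SE 0.0301, edgeR adjusted p = 7.21e-05), and had 0.04 (SE 0.0300, edgeR adjusted p = 0.256) with USCs medium against aging RGCs. The summed level of the list was 553 to 587 CPM in the normal libraries, 620 to 629 in the aging libraries and 642 to 651 with USCs medium, most of it Cd44. Nt5e, a surface enzyme of stromal cells, fell in aging RGCs with a log2 fold change of -0.59 (SE 0.132, edgeR adjusted p = 0.000564) and rose with USCs medium against aging RGCs, at 0.86 (SE 0.130, edgeR adjusted p = 2.57e-06). Pdgfrb, a growth factor receptor of fibroblasts and pericytes, had 5.28, 5.48 and 3.95 CPM in normal RGCs, 2.81, 2.73 and 3.04 in aging RGCs and 1.18, 1.34 and 0.922 with USCs medium. Of 7 tested smooth muscle and contractile genes 2 rose and 3 fell in aging RGCs, and 3 rose and 3 fell with USCs medium against aging RGCs. Among them the calponin gene Cnn3 had a log2 fold change of 0.42 (edgeR adjusted p = 4.71e-12) with USCs medium against aging RGCs, and the desmin gene Des had -0.50 (edgeR adjusted p = 0.000248). Of 13 tested mesenchymal regulators 3 rose (23.1%, beside 23.6% of all genes) and 1 fell in aging RGCs, and 1 rose and 8 fell (61.5%, beside 26%) with USCs medium against aging RGCs. Id2, an inhibitor of helix-loop-helix factors, had a log2 fold change of 0.58 (SE 0.0809, edgeR adjusted p = 9.28e-07) in aging RGCs and -0.88 (SE 0.0839, edgeR adjusted p = 8.78e-10) with USCs medium against aging RGCs.

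Markers of other cell types moved with the groups too. Of 11 macrophage markers 9 were tested, and 6 fell and 3 were not called in aging RGCs. The falls are 66.7% of those tested, beside 23% of all genes. In aging RGCs Itgam had 6, 3 and 3 counts and Tyrobp 4, 6 and 5. These 2 genes, Adgre1 and C1qb passed the count filter mainly through the normal libraries, in which they were high. The share of falls may owe part of its size to that filter. The summed level of the list was 71.6 to 84.9 CPM in the normal libraries, 58.1 to 63.8 in the aging libraries, and 48.1, 45.3 and 72.3 with USCs medium, with Cd68 the most abundant at 30.3 FPKM. This sum is mostly Cd68 and Cd14, neither of which was called in aging RGCs, and the falls of other genes in the list were larger than the sum shows. Lyz2, which encodes lysozyme, had 522, 210 and 265 counts in normal RGCs, 118, 23 and 38 in aging RGCs and 45, 20 and 241 with USCs medium, and a log2 fold change of -2.30 (SE 0.465, edgeR adjusted p = 0.000172) in aging RGCs. Adgre1, which encodes the macrophage surface protein F4/80, had 57, 19 and 43 counts in normal RGCs, 2, 0 and 1 in aging RGCs and 2, 2 and 32 with USCs medium. In aging RGCs Itgam and Csf1r, genes of a macrophage integrin and a growth factor receptor, fell with log2 fold changes of -2.72 (edgeR adjusted p = 0.000932) and -1.61 (edgeR adjusted p = 0.00111). With USCs medium against aging RGCs 3 genes rose (Adgre1, C1qb and Cd14), 1 fell (Cd68) and 5 were not called. The rises and falls are 33.3% and 11.1% of those tested, beside 27.1% and 26% of all genes. Most counts of Adgre1 and all counts of C1qb with USCs medium came from replicate 3. Of 6 endothelial markers 4 were tested. In aging RGCs 1 rose and 1 fell, which is 25% each way, beside 23.6% and 23% of all genes. With USCs medium against aging RGCs 3 fell and 1 was not called. These falls are 75% of those tested, beside 26% of all genes. The endothelial cadherin Cdh5 was the most abundant of them at 2.10 FPKM, and had 10.7, 10.6 and 11.6 CPM in normal RGCs, 7.08, 7.005 and 7.39 in aging RGCs and 1.54, 1.39 and 1.33 with USCs medium. The summed endothelial level was 12.4 to 14.6 CPM in the normal libraries, 9.62 to 11.4 in the aging libraries and 2.33 to 3.13 with USCs medium. In the normal and aging libraries most of this sum is Cdh5, which fell in aging RGCs. Vwf of the same list had 7, 10 and 10 counts in normal RGCs, 37, 30 and 21 in aging RGCs and 7, 1 and 11 with USCs medium. It rose in aging RGCs with a log2 fold change of 1.84 (SE 0.438, edgeR adjusted p = 0.000991). Outside the aging libraries its counts lay near or below the limit of the count filter. That Vwf was tested therefore leaned on the group in which it was high. Of 7 photoreceptor and 5 lens epithelium markers 0 were tested, with Crx, Arr3, Rcvrn, Cryaa, Crybb2, Foxe3 and Lim2 at 0 in all libraries. Of 5 Müller glia and astrocyte markers Glul alone was tested and was the most abundant at 40.5 FPKM, and of 7 retinal pigment epithelium markers Mitf alone was tested, at 6.94 FPKM. The part of these cell types in the changes of the epithelial and mesenchymal markers was not tested.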

How the data were processed

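RNA from 9 wells was enriched for mRNA with oligo(dT). Per the file headers, the authors deposited for each of 22322 genes an expected count (an estimated, unnormalized number of reads, of which 6.92% to 7.38% per library were not whole) and an FPKM value scaled by length and depth. The build was mm10 in the submitters' processing notes. The aligner, counter and annotation were not given in the sources used here.

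Counts were rounded and tested with edgeR 4.0.16 in R 4.3.3: filterByExpr kept 12145 genes, TMM factors were 0.956 to 1.03, and a model with 1 mean per group over all 9 libraries (6 residual degrees of freedom) gave quasi-likelihood F tests, adjusted by Benjamini-Hochberg over all tested genes. SE is the absolute log2 fold change over the square root of F. The threshold was an adjusted p under 0.05, also with at least 2-fold. CPM served for changes of a gene and FPKM for levels between genes. Coordinates are from GENCODE M21 on GRCm38. Alternatives used DESeq2 1.42.0, limma 3.58.1 on log2(FPKM + 1) and log2(FPKM + 0.1), other scalings and filters, the replicate number as a block, and each library left out. The fit was also tried on simulated data, and no value from that trial is given here.

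Groups came from the sample labels. The 38 genes and all lists were chosen with earlier results of these data known. Every tested gene of the 38 is given; genes of the related lists were named among the 3 largest called changes per comparison and list whose average log2 CPM reached 1. Krt15, Krt16, Bnc1, Dsc3, Nefl, Tubb3, Isl1, Vwf and macrophage genes other than Cd68 were added after their values were seen. A planned search for genes whose pattern resembles Krt19 and Acta2 was not run, since Acta2 was not tested and the 9 libraries fall into 3 groups, over which a pooled correlation is not given.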

Additional observations from a re-analysis of the deposited data

How the results depend on the processing

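Under the alternatives run, no called change of a tested marker gene reversed its direction. Over single genes, 1129 values kept their side of the threshold, 56 lost their call and 30 gained one. Beside the 5 rises of marker genes in aging RGCs, limma gave 3 on log2(FPKM + 1) and 3 with a pseudocount of 0.1, and leaving out a library gave 3 to 5; beside the 9 falls it gave 6 to 9. Beside the 5 rises with USCs medium against aging RGCs there were 2 without TMM factors, 3 with upper-quartile factors, 2 and 2 with limma, and 3 to 5 with a library left out, with 6 to 9 falls. For all genes, limma gave 2050 and 2056 rises with USCs medium against aging RGCs, where edgeR gave 3292, and 2337 and 2335 against normal RGCs, where edgeR gave 3716. The cause was not tested. Without TMM factors 35.8% of the calls of all genes were rises with USCs medium against aging RGCs, beside 51.1%, and 34.7% against normal RGCs, beside 50.6%. At least 2-fold called 1 rise and 0 falls of marker genes in aging RGCs, 1 and 1 with USCs medium against aging RGCs, and 1 and 2 against normal RGCs; among all genes it called 132 and 190, 150 and 511, and 179 and 637. DESeq2 called 4 rises and 9 falls of marker genes in aging RGCs, and 4 and 8 with USCs medium against aging RGCs. With the replicate number as a block the marker genes had 5 rises and 9 falls, 4 and 9, and 4 and 9 in the 3 comparisons. Deviations of same-numbered libraries correlated at -0.094 to 0.059 over 10810 genes, so a shared number does not pair libraries. Genes under about 3 counts, such as Cdh1, are limited by depth.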
